A study of Mus musculus with 11 samples.

Results

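The genes described here are 10 targets of the transcription factor p53 that act in cell cycle arrest, in feedback onto p53 and in damping of growth signals. They are Cdkn1a, Ccng1, Mdm2, Phlda3, Sesn2, Zmat3, Trp53inp1, Plk2, Gadd45a and Psrc1. They were taken by symbol from the 24138 loci of the expression table, where each had a locus of its own, and all 10 passed the filter of a mean of at least 1 FPKM that 12672 loci met, each with a mean above 1 FPKM in both groups. The samples were cortices dissected from mouse embryos at E14.5. The 2 Chd8 conditional knockout (cKO) libraries carried the genotype Chd8 c/c with Emx1-cre. The 3 controls had no Cre: control replicate 1 was Chd8 c/+, and control replicates 2 and 3 were c/c, so every library carried at least 1 conditional (c) allele. Emx1-cre recombines in progenitors of the dorsal telencephalon and the cells they give rise to, and a dissected cortex also holds microglia, vessels and immigrating interneurons that it does not target. The study is titled for the part of CHD8, a chromatin remodeller linked to autism, in developmental and adult neurogenesis.

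p53 is kept low in unstressed cells because MDM2 marks it for degradation. When damage or another stress blocks MDM2, p53 accumulates, binds response elements built of paired decamers, and switches on genes that halt the cell cycle, kill the cell, or feed back on p53 itself. In embryonic neural progenitors the pathway is best known for removing cells after DNA damage or faulty mitosis.

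Promoter windows of RefSeq (GRCm38.p6, 250 bases before to 50 bases after a start) were matched by symbol for 8 of the 10 genes. Zmat3 and Trp53inp1 had no match. The p53 decamer, the unit of such an element, which reads alike on both strands, was found in 4 of these 8 genes (Cdkn1a, Ccng1, Mdm2 and Gadd45a), beside 9.55% of all 27025 genes with a window. A pair of decamers side by side, 20 bases with at most 1 mismatch, was found in Cdkn1a and Ccng1 and in 0.107% of all genes (29 of 27025). The stretches are shown because these 2 genes also had the 2 largest log2 changes of the set with all 5 libraries, and because Mdm2 and Gadd45a, each with 1 decamer, differed in opposite directions. Capitals mark the 20-base element in Cdkn1a and Ccng1 and the decamer in Mdm2 and Gadd45a, and each is written 5′ to 3′ on the strand of its gene.
Cdkn1a: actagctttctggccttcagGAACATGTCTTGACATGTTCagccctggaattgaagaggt
Ccng1: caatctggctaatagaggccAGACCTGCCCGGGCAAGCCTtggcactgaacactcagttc
Mdm2: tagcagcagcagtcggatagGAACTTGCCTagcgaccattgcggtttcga
Gadd45a: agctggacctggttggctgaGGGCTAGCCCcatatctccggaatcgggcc
The order at the top rests on the libraries: Phlda3 had the largest change without control replicate 2 (1.33, beside 1.27 for Ccng1 and 1.17 for Cdkn1a), and exceeded Ccng1 without cKO replicate 2 (1.37 beside 1.33). The Cdkn1a stretch lies at chr17:29090908-29090967 on the plus strand, and its element spans bases 51 to 32 before the upstream of the gene's 2 starts. The window of that start held a further decamer that begins 73 bases before it. The stretch cuts this decamer and leaves it in lower case. The Ccng1 stretch lies at chr11:40755442-40755501 on the minus strand, with the element at bases 195 to 176 before the start. The Mdm2 stretch lies at chr10:117710915-117710964 and the Gadd45a stretch at chr6:67037418-67037467, both on the minus strand. The window of the downstream Cdkn1a start held no decamer, nor did the windows of Phlda3, Sesn2, Plk2 and Psrc1. A match describes the letters of a window and does not show binding. The other tested genes with a 20-base element, given below, overlapped between groups, and the search for it was added after the windows had been read.

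Expression was given as FPKM, fragments per kilobase of transcript scaled to the mapped fragments of a library. Summed FPKM was 418191 to 484296 per library, and 12237 to 12717 loci reached 1 FPKM in a library. FPKM carries no counts, so the sequencing depth is unknown and no counting interval can be given. The labels do not say whether a library came from 1 embryo or a pool, so p-values measure the spread between these libraries. The targeted gene, Chd8, was 31.5, 30.02 and 31.8 FPKM in controls 1 to 3 and 19.3 and 15.1 FPKM in cKO 1 and 2, with no overlap. A protocol field names an Eed knockout where titles and genotypes name Chd8. Eed was 17.8, 20.9 and 20.8 FPKM in the controls and 19.02 and 18.1 FPKM in the cKO.

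In these libraries 7 of the 10 genes were higher in both cKO libraries than in every control: Cdkn1a, Ccng1, Phlda3, Sesn2, Zmat3, Trp53inp1 and Mdm2. One gene, Gadd45a, was lower in both, and Plk2 and Psrc1 overlapped between groups. Over all tested loci, 13.4% lay above every control in both cKO libraries and 15.6% lay below. The median log2 change of the 10 genes was 0.66, beside -0.02 for all tested loci. Here and below a log2 change is the mean of log2(FPKM + 1) in the cKO minus that in the controls. Adding 1 shrinks the change of a gene with low FPKM. With whole-cortex RNA, more cells that express a gene and more RNA per cell cannot be told apart.

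None of the 10 genes passed limma's test at a Benjamini-Hochberg adjusted p under 0.05 over all 12672 loci. Among those loci, 2 higher (0.0158%) and 4 lower (0.0316%) passed it. At an unadjusted limma p under 0.05, 7 of the 10 were higher and 1 was lower, where 3.08% of all tested loci were higher and 4.37% lower. Without cKO replicate 2 these counts were 4 and 0, and without control replicate 3 they were 5 and 1. An exact two-sided permutation test of 3 against 2 libraries has 10 splits and cannot go below p = 0.1, the value that each of the 8 non-overlapping genes had. Of the 10 genes, 5 were called higher in the authors' deposited table (Cdkn1a, Ccng1, Phlda3, Zmat3 and Trp53inp1) and none lower, beside 1.21% higher and 3% lower among the 13511 loci the authors tested.

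**Figure D1:**
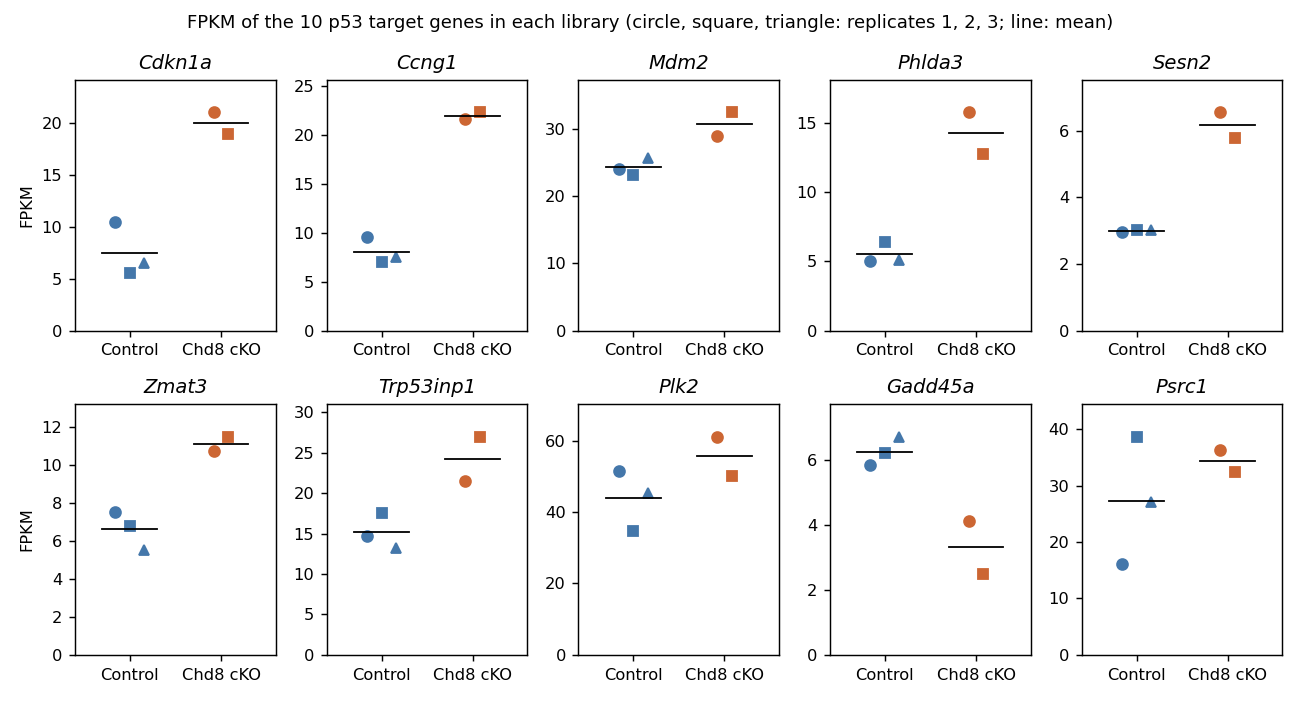
FPKM (linear axis from 0) of each of the 10 genes in 3 control libraries (blue) and 2 Chd8 cKO libraries (orange), with symbols for replicates and a line at the group mean. In 7 panels both cKO points lie above every control, in the Gadd45a panel both lie below, and the Plk2 and Psrc1 groups overlap.

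Among the genes of cell cycle arrest, Cdkn1a was higher in both cKO libraries, Gadd45a was lower in both, and Plk2 and Psrc1 overlapped. Cdkn1a (locus XLOC_008737; chromosome 17, 29090979 to 29100722) encodes p21, which binds cyclin-dependent kinases and stops cells from entering S phase. It was 10.5, 5.54 and 6.55 FPKM in controls 1 to 3 and 21.01 and 18.9 FPKM in cKO 1 and 2. The c/+ control was the highest control, and the lower cKO library was still 1.81 times it. Mean Cdkn1a FPKM was 19.98 ± 1.46 (SD, n = 2) in the cKO and 7.51 ± 2.60 (SD, n = 3) in controls, a ratio of 2.66. The log2 change was 1.34 (SE 0.261, 95% interval 0.69 to 1.99), with an unadjusted limma p of 0.00277 and an adjusted p of 0.575. Leaving out 1 library at a time gave 1.17 to 1.58.

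Gadd45a (XLOC_017901; chromosome 6, 67035096 to 67037407) encodes a stress sensor that acts at the G2/M boundary and in kinase signalling. It was 5.84, 6.22 and 6.72 FPKM in controls 1 to 3 and 4.14 and 2.50 FPKM in cKO 1 and 2. It was thus the one gene of the 10 with both cKO libraries under every control, at a ratio of means of 0.53. Its log2 change was -0.77 (SE 0.207, 95% interval -1.29 to -0.26), with an unadjusted limma p of 0.0112 and an adjusted p of 0.575. Without cKO replicate 2, the lower library, the change was -0.50 and the unadjusted p was 0.0512. A long noncoding RNA, E230016M11Rik, overlaps Gadd45a in RefSeq, and the strand setting of the counting is not given in the sources used here. E230016M11Rik was 1.40, 0.288 and 0.428 FPKM in the controls and 0.672 and 0.571 FPKM in the cKO, below Gadd45a in each library.

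Plk2 (XLOC_005485; chromosome 13, 110395044 to 110400844), a Polo-like kinase of the centrosome cycle and of synapses, was the most abundant of the 10 genes. It was 51.4, 34.8 and 45.3 FPKM in controls 1 to 3 and 61.1 and 50.2 FPKM in cKO 1 and 2, so cKO 2 fell within the range of the controls. The log2 change was 0.35 (SE 0.207, 95% interval -0.17 to 0.87) with an unadjusted limma p of 0.148. Psrc1 (XLOC_013486; chromosome 3, 108383804 to 108388231), which encodes a microtubule-binding protein of the mitotic spindle, was 16.1, 38.6 and 27.1 FPKM in controls 1 to 3. It was 36.3 and 32.4 FPKM in cKO 1 and 2, both below control 2. Its controls differed 2.41-fold from lowest to highest, the widest control range of the 10 genes. The log2 change of Psrc1 was 0.40 (95% interval -0.49 to 1.30) with an unadjusted limma p of 0.304 and an adjusted p of 0.681, and 0.08 without control replicate 1.

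Among the 10 genes, Ccng1, Mdm2 and Trp53inp1, which act on p53, were higher in both cKO libraries, by very different amounts. Zmat3, which acts downstream of p53, was higher in both as well. Ccng1 (XLOC_003490; chromosome 11, 40748552 to 40755309) encodes cyclin G1, which brings phosphatase PP2A to MDM2. It was 9.61, 7.06 and 7.54 FPKM in controls 1 to 3 and 21.6 and 22.3 FPKM in cKO 1 and 2. The cKO libraries lay close together, and the lower of them was 2.25 times the highest control. Mean FPKM was 21.99 ± 0.490 (SD, n = 2) against 8.07 ± 1.35 (SD, n = 3). With all 5 libraries Ccng1 had the largest log2 change of the 10 genes, 1.35 (SE 0.161, 95% interval 0.95 to 1.76), and the smallest unadjusted limma p, 2.48e-04, which ranked 10 among the 12672 loci. Its adjusted p was 0.314, and its change was 1.27 to 1.47 with 1 library left out.

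Mdm2 (XLOC_002342; chromosome 10, 117688875 to 117710758), the ubiquitin ligase gene at the centre of the feedback loop, was 24.1, 23.1 and 25.8 FPKM in controls 1 to 3. It was 28.9 and 32.5 FPKM in cKO 1 and 2, and the lower cKO value was 1.12 times the highest control. The groups did not overlap, but the step between them was the smallest among the 7 genes that were higher. The log2 change was 0.32 (SE 0.127, 95% interval 0.01 to 0.64). Its unadjusted limma p of 0.0474 rose to between 0.0745 and 0.167 on leaving out any one of the 3 controls or cKO replicate 2. It was 0.0525 with a pseudocount of 0.1 and 0.0608 with no intensity trend. In the authors' deposited table Mdm2 had a q-value of 0.365.

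Trp53inp1 (XLOC_014218; chromosome 4, 11156441 to 11174379) encodes a cofactor that promotes p53 activity and autophagy. It was 14.7, 17.6 and 13.3 FPKM in controls 1 to 3 and 21.6 and 26.97 FPKM in cKO 1 and 2. The log2 change was 0.64 (SE 0.176, 95% interval 0.20 to 1.08) with an unadjusted limma p of 0.0123. It was 0.49 (unadjusted p = 0.0849) without cKO replicate 2 and 0.56 (unadjusted p = 0.0518) without control replicate 3. Zmat3 (XLOC_013683; chromosome 3, 32334792 to 32365665) encodes a zinc finger protein that binds RNA and alters splicing downstream of p53. It was 7.54, 6.80 and 5.55 FPKM in controls 1 to 3 and 10.8 and 11.5 FPKM in cKO 1 and 2. The log2 change was 0.68 (SE 0.161, 95% interval 0.28 to 1.08) with an unadjusted limma p of 0.00675, or 0.0512 without cKO replicate 2. The long noncoding RNA 4930429B21Rik, which overlaps Zmat3 in RefSeq, was 0.769 to 0.822 FPKM in the controls and 1.19 and 0.692 FPKM in the cKO.

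Both genes that damp growth signalling were higher in each cKO library, with ratios of means of 2.59 and 2.06. Phlda3 (XLOC_000419; chromosome 1, 135766085 to 135769134) encodes a small pleckstrin-homology protein that keeps the kinase AKT from the membrane. It was 5.01, 6.42 and 5.13 FPKM in controls 1 to 3 and 15.8 and 12.8 FPKM in cKO 1 and 2. The lower cKO library was 1.99 times the highest control, and the ratio of means was 2.59. The log2 change of Phlda3 was 1.23 (SE 0.169, 95% interval 0.81 to 1.65), with an unadjusted limma p of 5.06e-04 and an adjusted p of 0.42.

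Sesn2 (XLOC_015407; chromosome 4, 132492804 to 132510456) encodes sestrin 2, a leucine sensor that restrains mTORC1. It was 2.96, 3.01 and 3.02 FPKM in controls 1 to 3 and 6.54 and 5.77 FPKM in cKO 1 and 2. The controls differed by 1.02-fold, the narrowest control range of the 10 genes, and the lower cKO library was 1.91 times the highest of them. Its log2 change was 0.84 (SE 0.143, 95% interval 0.48 to 1.20) with an unadjusted limma p of 0.00149 and an adjusted p of 0.575. At about 3 FPKM this scale shrinks the change, and the ratio of mean FPKM was 2.06. Sesn2 also belongs to the integrated stress response. Of 9 tested genes of that response, Sesn2 was the one at an unadjusted p under 0.05 with all 5 libraries, and the median log2 change was -0.16. Without control replicate 1 the response had 2 higher and 2 lower genes, without cKO replicate 1 it had 1 lower, and with no filter on low values it had 2 higher. Ddit3, which encodes the stress factor CHOP, was 16.3, 27.4 and 20.9 FPKM in the controls and 16.6 and 7.50 FPKM in the cKO, so the groups overlapped. Asns was 20.6, 14.8 and 18.3 FPKM in the controls and 22.8 and 24.4 FPKM in the cKO, above every control. Their unadjusted limma p-values were 0.0631 and 0.0639. Of the 9 genes, 3 changes were positive and 6 negative. Both cKO libraries lay above every control for 2 genes and below for 2.

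**Figure D2:**
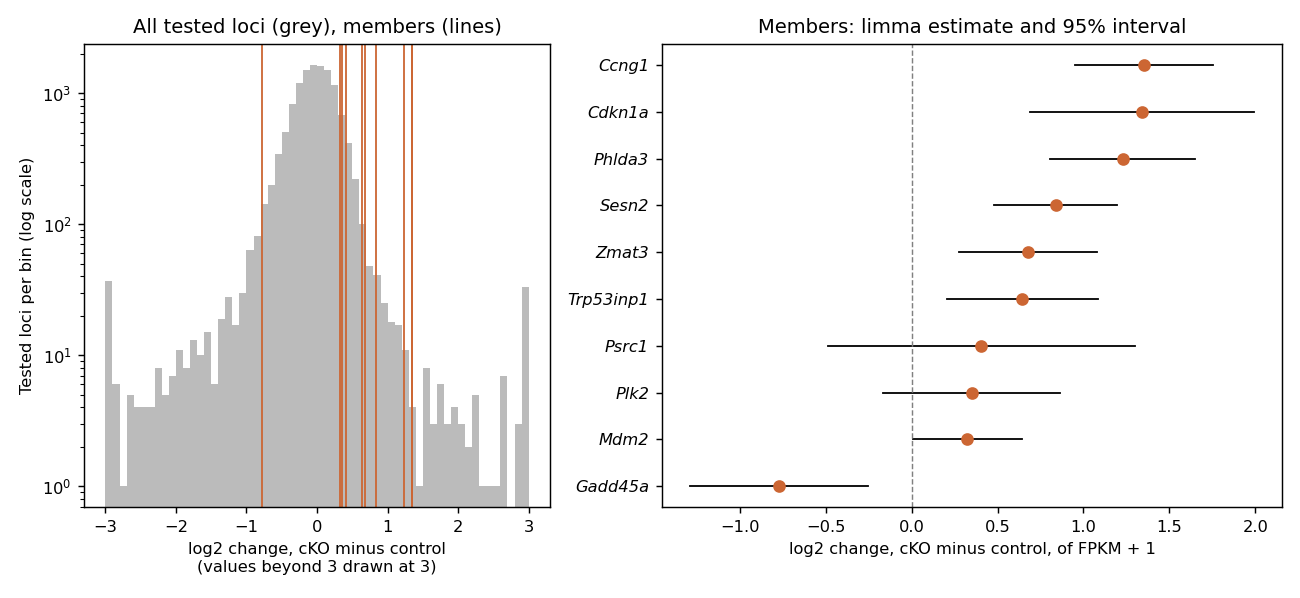
Left, histogram of the log2 change of all 12672 tested loci (grey, count on a log axis) with a line for each of the 10 genes. Right, log2 change of each gene with its 95% interval from limma: Ccng1, Cdkn1a and Phlda3 lie above 1, and the intervals of Psrc1 and Plk2 include 0.

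Neither cKO library was the higher one throughout: 6 of the 10 genes were higher in cKO 1 and 4 in cKO 2. Among the controls, the c/+ library had the highest value for 4 genes and the lowest for 4. Cdkn1a, Ccng1, Zmat3 and Plk2 were highest in that control, while Psrc1, Phlda3, Sesn2 and Gadd45a were lowest there. The plot of changes with 1 library left out shows that no gene changed sign on losing any single library.

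**Figure D3:**
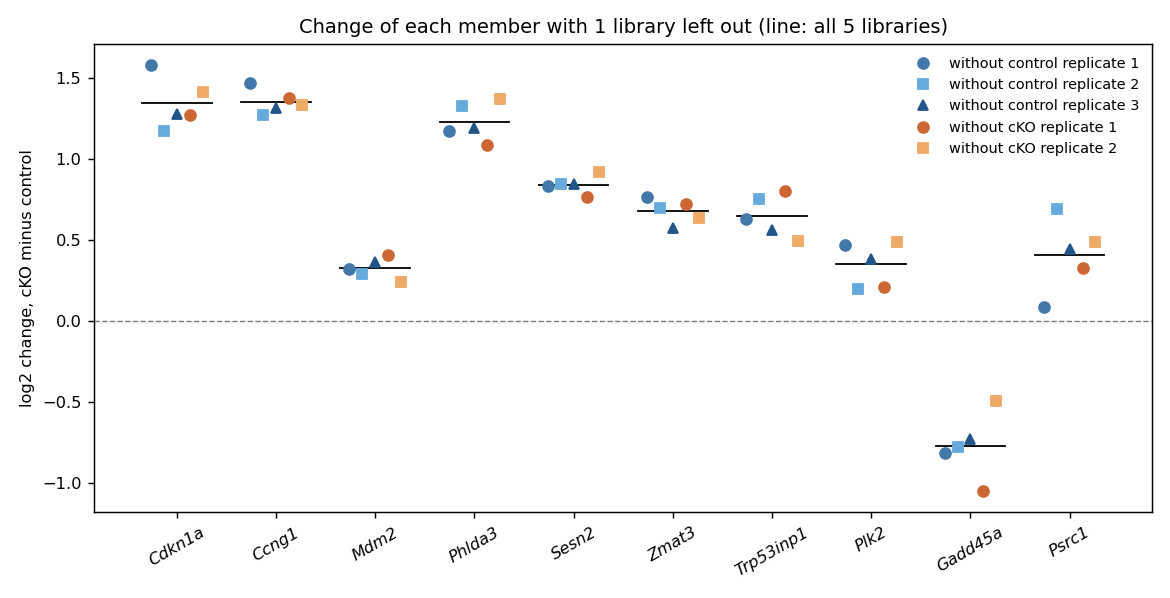
Log2 change (cKO minus control, of FPKM + 1) of each gene with all 5 libraries (line) and with 1 library left out (symbols). Every symbol of a gene lies on the same side of 0 as its line, and Psrc1 comes nearest to 0, at 0.08 without control replicate 1.

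Close relatives of these genes, which share protein families but are not all p53 targets, were read beside them. Of 18 tested relatives none was higher at an unadjusted p under 0.05, 2 were lower, and the median log2 change was -0.03. Leaving out control replicate 1 gave 3 lower relatives, leaving out cKO replicate 2 gave 0, and leaving out any other library gave 1. The median was -0.16 without cKO replicate 1. Cdkn1c, which encodes p57, a Cip/Kip inhibitor like p21, was 140, 72.5 and 84.4 FPKM in controls 1 to 3 and 48.6 and 46.3 FPKM in cKO 1 and 2. It was thus lower in both cKO libraries than in every control, opposite to Cdkn1a. Its log2 change was -0.99, with an unadjusted limma p of 0.018 and an adjusted p of 0.575. Cdkn1b, which encodes p27, was 41.9 ± 5.77 (SD, n = 2) against 52.1 ± 3.60 (SD, n = 3) FPKM, with an unadjusted limma p of 0.0816. Sesn1, Sesn3 and Mdm4 had log2 changes of -0.14, -0.03 and 0.06, with unadjusted limma p-values of 0.472, 0.86 and 0.696. Gadd45g, a relative of Gadd45a expressed in differentiating progenitors, was 60.002, 153 and 91.3 FPKM in the controls and 51.2 and 43.03 FPKM in the cKO. Its unadjusted limma p was 0.0484 and its adjusted p 0.575. In the authors' deposited table Cdkn1c and Gadd45g were both called lower, each with a q-value of 0.00331. Ccng2 was 56.3, 68.5 and 64.2 FPKM in the controls and 74.2 and 80.1 FPKM in the cKO, with a log2 change of 0.29, an unadjusted limma p of 0.0925 and an adjusted p of 0.575.

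**Figure D4:**
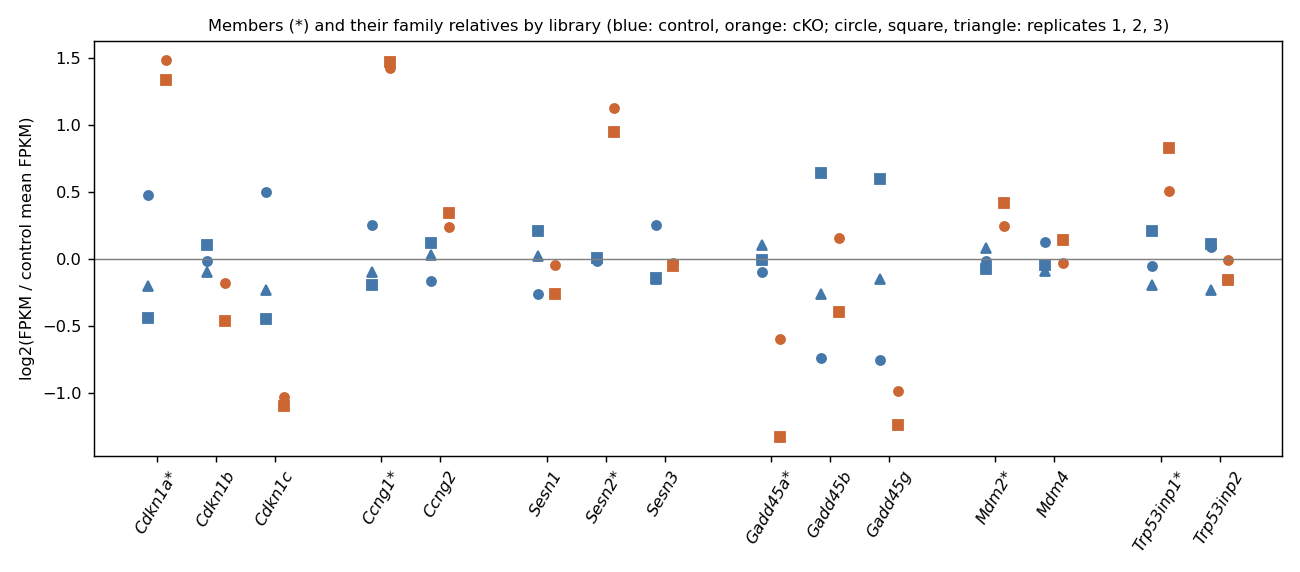
Log2 ratio of FPKM to the control mean in each library, for the genes with a close relative (asterisk) and those relatives. Cdkn1a, Ccng1 and Sesn2 in the cKO lie near or above 1, while Cdkn1c lies near -1 and Sesn1, Sesn3 and Mdm4 lie near 0.

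Other parts of the p53 pathway gave smaller shares. Of 16 cell death targets, 12 were tested, and 4 of these were higher and none lower at an unadjusted p under 0.05, with a median log2 change of 0.14. This count was 2 without control replicate 3 and without either cKO replicate, and 8 with no filter on low values, and the median was 0.26 without cKO replicate 2 and -0.03 among genes averaging 5 FPKM or more. Of the 4, Eda2r and Perp had control means under 1 FPKM and met the filter only through the cKO libraries, so they had to differ to be tested. The other 2 were Apaf1, the apoptosome scaffold, and Ei24. Eda2r was 0.297, 0.556 and 0.280 FPKM in the controls and 3.37 and 3.67 FPKM in the cKO. Of 24 tested targets of repair, metabolism and other roles, 1 was higher and none lower, and the median was -0.05. Without control replicate 1 the counts were 3 and 1, and without control replicate 2 they were 2 and 0. Leaving out cKO replicate 2 moved the median to 0.09. The one was Ephx1, a detoxifying hydrolase gene, which met the filter only through the cKO libraries, at 2.30 ± 0.596 (SD, n = 2) against 0.844 ± 0.232 (SD, n = 3) FPKM. Ier5 was 30.6, 56.0 and 36.3 FPKM in the controls and 28.6 and 20.2 FPKM in the cKO, below every control. Its log2 change was -0.70, with an unadjusted limma p of 0.0607. In the authors' deposited table Ier5 was called lower, with a q-value of 0.00331. Of the 24 genes, 6 lay above every control in both cKO libraries and 2 lay below.

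Of 20 tested genes that encode p53, its regulators and checkpoint kinases, none was called in either direction at an unadjusted limma p under 0.05, and the median log2 change was 0.11. There was 1 higher and 1 lower gene without control replicate 1, and likewise without cKO replicate 1, and 1 higher without control replicate 2. Leaving out cKO replicate 1 gave a median of 0.24, and leaving out cKO replicate 2 gave 0.01. Trp53, the p53 gene itself, was 46.2, 84.1 and 57.9 FPKM in the controls and 45.3 and 45.98 FPKM in the cKO. Both cKO values lay just under control 1, and the log2 change was -0.41, with an unadjusted limma p of 0.178 and an adjusted p of 0.608. Kat5 had the smallest unadjusted limma p of the 20 genes, 0.0513, with a log2 change of -0.33. It was 43.4, 44.9 and 46.4 FPKM in the controls and 38.6 and 32.9 FPKM in the cKO, below every control. Chek1, a checkpoint kinase gene, was 7.29 ± 1.85 (SD, n = 2) against 4.92 ± 1.00 (SD, n = 3) FPKM. Trp73 was 2.33, 7.155 and 5.88 FPKM in the controls and 10.5 and 9.16 FPKM in the cKO. Its log2 change was 0.92, with an unadjusted limma p of 0.0651 and an adjusted p of 0.575. In the authors' deposited table Trp73 was called higher, with a q-value of 0.0059. Of the 20 genes, 6 lay above every control in both cKO libraries and 2 lay below.

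Cell cycle genes were read at the same threshold, which 7.45% of all tested loci passed in either direction. Of 20 mitosis and S phase genes none passed an unadjusted p under 0.05 in limma, while 16 had a positive change, as did 46.9% of all tested loci, and the median was 0.11. Leaving out control replicate 1 gave a median of -0.09, leaving out cKO replicate 2 gave -0.01, and leaving out control replicate 2 gave 0.30. Mki67, a marker of cycling cells, was 28.4, 43.8 and 39.96 FPKM in the controls and 37.7 and 39.4 FPKM in the cKO. Of 18 tested G1 cyclins, kinases and inhibitors, Ccne2, a cyclin E gene, was higher at 7.19 ± 1.79 (SD, n = 2) against 4.36 ± 0.352 (SD, n = 3) FPKM. Its unadjusted limma p was 0.0205 and its adjusted p 0.575. Cdkn1c was the one that was lower. The higher count was 0 without control replicate 3 or without cKO replicate 2, and the lower count was 0 without cKO replicate 2.

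**Figure D5:**
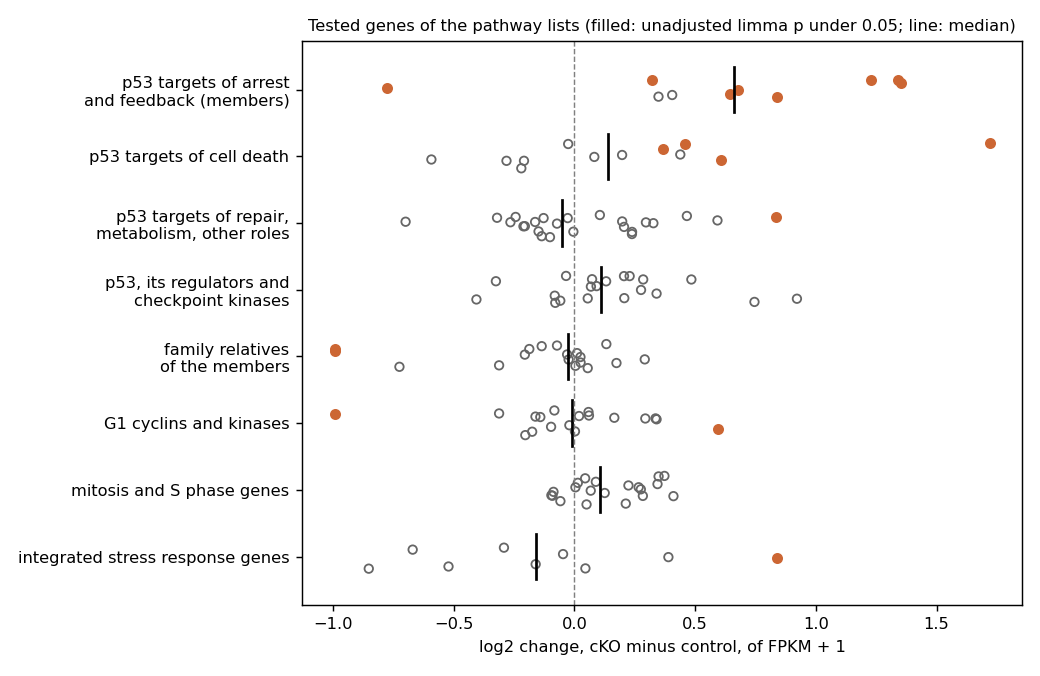
Log2 change of each tested gene in the 10 p53 targets and 7 related lists, with filled points at an unadjusted limma p under 0.05 and a line at the list's median. Filled points make up 8 of the 10 genes, 4 of 12 cell death targets and none of the 20 p53 regulators.

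Markers of other cells were summed per library. Summed FPKM of 17 microglial markers was 53.2 to 66.2 in the controls and 137 to 139 in the cKO. All 15 tested markers had a positive log2 change (median 0.89), and 14 lay above every control in both cKO libraries. At an unadjusted limma p under 0.05, 12 of the 15 (80%) were higher. Of the tested microglial markers, Aif1 had a control mean under 1 FPKM and met the filter only through the cKO libraries. The sum of 14 ventral telencephalic markers was 311 to 506 in the controls and 614 to 698 in the cKO. All 14 changes were positive, with a median of 0.80, and 5 had an unadjusted limma p under 0.05. The sum of 10 intermediate progenitor markers was 412 to 879 against 318 to 379, with 9 of 10 changes negative. Their median was -1.10, and 5 were lower at an unadjusted limma p under 0.05. Sums of 13 endothelial and pericyte markers lay close, at 92.8 to 107 against 108 to 116. Of these, 8 had a positive change, the median was 0.08, and Rgs5 was the one at an unadjusted p under 0.05. Sums of 12 radial glial, 11 cortical neuron, 9 erythroid, 9 meningeal and 9 Cajal-Retzius markers overlapped between groups. The Cajal-Retzius sum was 223 in control 1, the c/+ library, and 59.1 and 77.0 in controls 2 and 3. It was 120 and 99.2 in cKO 1 and 2. The meningeal sum was 27.8 in control 2, 5.73 and 6.78 in controls 1 and 3, and 9.06 and 6.26 in the cKO. Within the radial glial list, 4 of 11 tested markers had an unadjusted p under 0.05 (Hes1, Emx2 and Nes lower, Ptprz1 higher). So did Reln and Ndnf of the Cajal-Retzius list and Dcx of the cortical neuron list, all higher. Ndnf had a control mean under 1 FPKM and met the filter only through the cKO libraries, so it had to differ to be tested. Of the 9 tested Cajal-Retzius markers, 5 changes were positive and 4 negative, with a median of 0.08. Of the 11 tested cortical neuron markers, 5 were positive and 6 negative, with a median of -0.11. No marker was at 0 in every library. The part of these markers' cells in the values of the 10 genes was not tested.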

How the data were processed

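RNA was measured in 3 control and 2 cKO libraries, grouped by sample titles. Another 6 ATAC-seq samples were not used here. The authors deposited FPKM per locus and library with group means, per the file headers. Per the file headers, the authors also deposited their comparison: log2 fold changes, test statistics (a score), p-values and q-values. The submitters' processing notes name CASAVA, TopHat, Cufflinks, Bowtie2, MACS and mm10, without versions or roles. Among loci above 0 and under 0.05 FPKM, 3% to 6.94% per library shared the commonest ratio to control 1. No criterion for steps of whole reads was set, and no read counts were derived.

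Values of loci that averaged 1 FPKM or more entered limma (version 3.58.1, under R 4.3.3) as log2(FPKM + 1), with the empirical Bayes prior following intensity. Residual and prior degrees of freedom were 3 and 2.49. Benjamini-Hochberg adjustment covered all 12672 loci, and the procedure was tested on simulated data. The 12 alternatives covered pseudocount, filter, scaling, trend, replicate block and each left-out library. The 10 genes and all lists were chosen with earlier results of these data known. Beyond the 10 genes and Chd8, the genes named from a pathway list were among the 4 with the smallest p, family relatives, or Trp53, Mki67 and Eed, which were chosen after their values were seen. Cell type markers were named for an unadjusted limma p under 0.05 or, for Aif1, for meeting the filter only through the cKO libraries. The search for the 20-base element was also added after the windows had been read. Several symbols were joined at 355 loci, none of them among the 10 genes. Coordinates are from RefSeq GRCm38.p6, the assembly of mm10.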

Additional observations from a re-analysis of the deposited data

How the results depend on the processing

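For the 10 genes and Chd8, 117 of 131 log2 changes under the alternatives kept their direction and their side of an unadjusted limma p of 0.05. The other 14 kept the direction but lost the threshold (Mdm2, Zmat3, Trp53inp1 and Gadd45a), and the cause was not tested. Members higher at that threshold numbered 4 to 7, and lower 0 to 1, with 1 library left out. With the replicate number as a block, they numbered 4 and 0. The deviations of same-numbered libraries correlated at -0.0666 and -0.109, so the numbers do not show a pairing. The block leaves 1 residual degree of freedom. No member passed an adjusted p under 0.05 under any alternative run. Sesn2 was not tested at a mean of at least 5 FPKM.

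Over all loci, 390 higher and 554 lower at an unadjusted p under 0.05 became 155 to 1002 and 162 to 984 with 1 library left out, 113 and 149 with the block, and 726 higher with no filter. At an adjusted p under 0.05, 2 higher and 4 lower became 2 to 30 and 2 to 10 with 1 library left out, 1 and 2 with the block, 1 higher at a mean of at least 5 FPKM, 1 lower with no filter and 2 lower with no intensity trend. The scalings moved the median of all loci from -0.02 to between -0.004 and 0.02. Depth is unknown, so the precision of single low values cannot be given.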

Other observations

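Apart from Cdkn1a and Ccng1, 4 tested genes had a 20-base p53 element with at most 1 mismatch in a promoter window. Rps27l, a known p53 target related to a ribosomal protein gene, had 66.9, 118 and 92.7 FPKM across the controls and 129.7 and 100.7 FPKM across the cKO libraries. Gtse1, a mitotic regulator of p53, was 8.50, 17.2 and 13.4 FPKM in the controls and 14.02 and 17.5 FPKM in the cKO. Mthfd1, an enzyme of folate metabolism, had a log2 change of -0.04, and Sptbn4, a spectrin of axon initial segments, one of -0.15. In all 4 the groups overlapped, and none reached an unadjusted limma p under 0.05 (0.265, 0.357, 0.847 and 0.729).

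The level of Cdkn1a relative to Cdkn1c, a ratio chosen after their values were seen, hardly varied within a group. The controls had 0.0745, 0.0764 and 0.0775, and the cKO libraries 0.433 and 0.409, a mean 5.53 times that of the controls. In both cKO libraries Cdkn1a already lay above every control and Cdkn1c below, so the ratio had to separate the groups. Its exact two-sided permutation p of 0.1, the smallest that 10 splits allow, is thus no further evidence. Among the controls, both genes were highest in the c/+ library, at 10.5 FPKM for Cdkn1a and 140 FPKM for Cdkn1c. Of 8 such ratios computed, Gadd45a over Gadd45g overlapped between groups, at 0.0973, 0.0406 and 0.0736 in the controls and 0.0808 and 0.058 in the cKO. The numerators of the other 7 were already above every control in both cKO libraries, so those ratios add little to the single values.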
